A study of Mus musculus with 10 samples.

Results

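The 8 transcription factors Gata6, Hnf4a, Foxa1, Foxa2, Sox9, Klf5, Glis3 and Trp63, regulators of classical and basal-like identity in pancreatic cancer, were followed in murine orthotopic tumors. They were taken by symbol, from 55359 genes with deposited values, and all 8 passed the minimum mean of 1 normalized count that was set for testing. The tumors grew from KPC K8484 cells, a luciferase-expressing murine line that carries Trp53R172H/+ and Pdx1-Cre, injected into the pancreas of immunocompetent C57BL/6 mice (C57BL/6 J in the methods) aged 10 weeks. Every tumor, CTRL included, thus carries the alleles of this line, comes from 1 cell line and holds host cells. CTRL mice (n = 5 tumors) drank regular water and D30 mice (n = 5 tumors) drank water with 30% dextrose for 14 days. Male and female mice were used in equal numbers according to the methods, but the sex of the host of each tumor is not given. The sample titles say PDX although the source is given as the murine line. Tumors are named by their data columns, N1, N2, N4, N5 and N6 for CTRL and T1, T2, T4, T5 and T7 for D30, and values below follow this order. Values are normalized counts, that is, reads per gene after division by 1 size factor per tumor.

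In pancreatic cancer, the classical state is an epithelial state that keeps endodermal gene expression, and the basal-like state has lost much of it and can take on squamous features. GATA6, HNF4A and the forkhead pioneer factors FOXA1 and FOXA2 are known as classical or endodermal regulators. KLF5 and SOX9 are epithelial and ductal factors, GLIS3 is a Krüppel-like zinc finger factor known from islet development, and p63, the product of Trp63, is the master regulator of squamous epithelium.

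Of the 8 factors, 0 were differentially expressed between D30 and CTRL tumors by limma at an adjusted p under 0.05. An unadjusted p under that value was found for 2, Klf5 and Glis3, and for 4258 of all 24560 tested genes. The same test called 678 of 24560 genes (2.76%), 344 higher (1.4%) and 334 lower (1.36%) in D30 tumors. By edgeR 0 of the 8 were called, and by DESeq2 1, Klf5, where DESeq2 called 9.27% of the genes with an adjusted p. On average 2 factors, Klf5 and Sox9, were higher and 6 were lower under D30. Their median log2 fold change was -0.34, against -0.06 over all tested genes. For none of the 8 were the D30 and CTRL tumors free of overlap, while 6.19% of all tested genes were. In such bulk tissue, fewer cells of a type and less RNA per cell cannot be told apart.

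The D30 tumor T4 touched most of these results. It was the lowest of all 10 tumors for 5 factors, Gata6, Hnf4a, Foxa1, Foxa2 and Glis3. T4 was also the only tumor with reads of the Y-linked genes, 841 against 0 in each other tumor. The equal numbers of male and female mice in the methods are thus not seen in these reads. Fits without T4 leave out the only tumor with such reads. In T4 long transcripts were low as well. The deviation of the 25% of genes with the longest exons minus that of the 25% with the shortest was -0.99 on the log2 scale in T4 and -0.25 to 0.48 in the others. Genes of high GC content deviated from those of low GC content by -1.19 in T4 and by -0.67 to 0.45 in the others. The part of these differences in the results was not tested. Without T4, limma called 6.43% of 24471 genes and 1 of the 8 factors, Klf5. Recovered reads per tumor were 29192261 to 42122304.

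**Figure D1:**
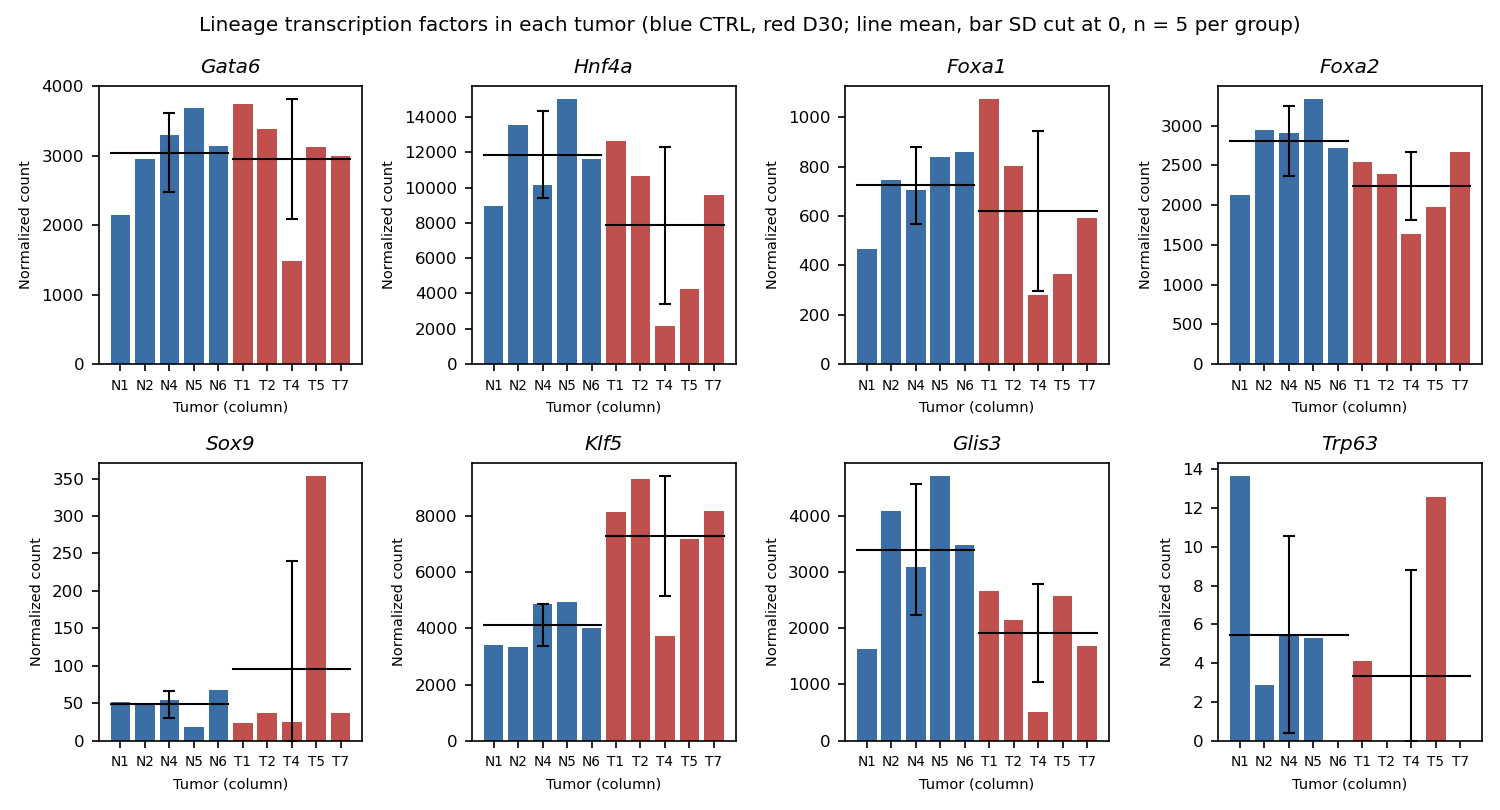
Normalized counts (y axis, from 0) of the 8 lineage transcription factors in each tumor (x axis, by column), blue for CTRL and red for D30, with the group mean as a line and the SD as an error bar (n = 5). T4 is the lowest bar for Gata6, Hnf4a, Foxa1, Foxa2 and Glis3, and 4 of the 5 D30 bars of Klf5 stand above every CTRL bar.

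Hnf4a (chromosome 2, 163506808 to 163572910, GRCm38), a nuclear receptor of liver, gut and pancreas, was the most abundant of the 8. In CTRL tumors it was at 8938, 13543, 10171, 15008 and 11640 normalized counts, and in D30 tumors at 12638, 10667, 2146, 4270 and 9557. T4 and T5 lay below every CTRL tumor, while the other D30 tumors lay within the CTRL range. CTRL tumors averaged 11860 ± 2459 (SD, n = 5) and D30 tumors 7855 ± 4448 (SD, n = 5), which gave a log2 fold change of -0.84 ± 0.42 (SE). This difference did not pass the test (limma adjusted p = 0.326, two-sided exact permutation p = 0.143). Its 95% confidence interval ran from -1.74 to 0.06. Without T4 the log2 fold change was -0.44, and without both T4 and T5, a choice made after the values were seen, it was -0.10. The antisense gene Hnf4aos overlaps Hnf4a on the opposite strand, the libraries were strand-specific, and whether reads were counted by strand is not given in the sources used here.

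Foxa2 (chromosome 2, 148042877 to 148046969) and Foxa1 (chromosome 12, 57540628 to 57546916) are paralogous forkhead factors that open chromatin in endodermal tissue. Foxa2 was at 2125, 2949, 2913, 3333 and 2718 normalized counts in CTRL tumors and at 2548, 2396, 1638, 1977 and 2671 in D30 tumors. T4 and T5 again lay below every CTRL tumor. The log2 fold change of Foxa2 was -0.33 ± 0.19 (SE), with a 95% interval from -0.75 to 0.09 (limma adjusted p = 0.411, exact permutation p = 0.0873). Foxa1 was at 468, 747, 705, 841 and 858 normalized counts in CTRL tumors and at 1073, 802, 280, 364 and 592 in D30 tumors. The D30 tumors spread over a wider range than CTRL on both sides, with T1 above and T4 and T5 below all CTRL tumors. The log2 fold change of Foxa1 was -0.35 ± 0.34 (SE), with a 95% interval from -1.10 to 0.39 (limma adjusted p = 0.646, exact permutation p = 0.381). Without 1 tumor it ranged from -0.59 (without T1) to -0.11 (without T4), with -0.20 without T5, and it turned to 0.17 without both T4 and T5. By edgeR and DESeq2 it was -0.22 for each, and with library-size scaling -0.58. Foxa2 was at -0.55 with library-size scaling and at -0.13 without T4 and T5.

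RefSeq promoter windows (GRCm38.p6, 250 bases before to 50 after a transcription start) were examined for 4 of the 8 factors. These were Hnf4a, Foxa1, Foxa2 and Glis3. Windows of the remaining factors were not examined, which does not mean that none exist. Shown are the windows of Hnf4a, Foxa1 and Foxa2 that hold core letters of the motif of a lineage factor, so that such letters can be read in the regulators themselves. The letters searched on both strands were GTTAAT for HNF1 (in 7.10% of all 32851 windows), CAAAGT for HNF4 (14.4%), AGATAA for GATA (11.2%) and TGTTTAC for forkhead factors (3.65%). Capitals mark the matches, each window is written along its gene's strand, and a match describes letters only. In the Foxa1 window a forkhead and an HNF4 match overlap, and in the Foxa2 window a GATA match is followed by an HNF1 and an HNF4 match that overlap. The upstream Hnf4a window holds 1 GATA match and the downstream Hnf4a window 2 HNF1 matches. The other 2 Foxa2 windows and that of Glis3 hold none of the letters searched.
Foxa1 (chr12:57546062-57546361, minus strand): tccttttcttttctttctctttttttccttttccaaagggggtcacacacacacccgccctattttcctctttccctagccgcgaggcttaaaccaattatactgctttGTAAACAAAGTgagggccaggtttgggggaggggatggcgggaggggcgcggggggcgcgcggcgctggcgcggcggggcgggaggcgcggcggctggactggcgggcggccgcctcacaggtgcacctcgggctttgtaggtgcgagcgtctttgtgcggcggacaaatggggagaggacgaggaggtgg
Foxa2 (chr2:148045415-148045714, minus strand): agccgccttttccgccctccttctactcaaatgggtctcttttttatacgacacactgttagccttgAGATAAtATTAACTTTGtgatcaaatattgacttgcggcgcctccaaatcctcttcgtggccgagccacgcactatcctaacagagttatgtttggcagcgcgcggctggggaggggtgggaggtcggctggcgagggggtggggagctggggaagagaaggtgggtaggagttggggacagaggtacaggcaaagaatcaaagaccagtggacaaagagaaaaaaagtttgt
Hnf4a upstream (chr2:163506607-163506906, plus strand): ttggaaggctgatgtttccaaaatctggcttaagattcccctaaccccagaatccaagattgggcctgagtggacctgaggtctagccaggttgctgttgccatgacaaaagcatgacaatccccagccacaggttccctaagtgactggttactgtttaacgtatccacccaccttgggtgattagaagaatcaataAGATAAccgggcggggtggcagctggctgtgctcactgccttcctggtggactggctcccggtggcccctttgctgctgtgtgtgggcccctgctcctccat
Hnf4a downstream (chr2:163546905-163547204, plus strand): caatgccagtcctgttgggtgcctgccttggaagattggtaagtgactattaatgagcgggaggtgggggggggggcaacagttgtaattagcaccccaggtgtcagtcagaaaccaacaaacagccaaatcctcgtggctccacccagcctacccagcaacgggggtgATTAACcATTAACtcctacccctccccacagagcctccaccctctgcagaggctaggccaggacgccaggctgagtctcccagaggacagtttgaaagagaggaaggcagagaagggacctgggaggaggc

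Klf5 (chromosome 14, 99298691 to 99315036), a zinc finger factor of proliferating epithelium, was the member with the smallest p. It was at 3417, 3356, 4874, 4929 and 4025 normalized counts in CTRL tumors and at 8144, 9317, 3735, 7186 and 8178 in D30 tumors. Of the 5 D30 tumors, 4 exceeded every CTRL tumor, and T4 lay within the CTRL range. The means were 4120 ± 760.0 (SD, n = 5) and 7312 ± 2138 (SD, n = 5), a fold of 1.77. Its log2 fold change was 0.78 ± 0.25 (SE), with a 95% interval from 0.25 to 1.32, and did not pass the test across all genes (limma adjusted p = 0.121, edgeR adjusted p = 0.101, exact permutation p = 0.0317). Klf5 passed by DESeq2 on the recovered reads (log2 fold change 0.83, adjusted p = 0.0251). It also passed without T4, where the D30 tumors spanned 7186 to 9317 normalized counts and the log2 fold change was 1.01 (limma adjusted p = 0.00313). The range of the limma adjusted p over the 10 fits that left out 1 tumor each was 0.00313 to 0.299.

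Gata6, a zinc finger factor whose level is used as a marker of the classical state, showed similar ranges in both groups. It was at 2143, 2952, 3300, 3688 and 3144 normalized counts in CTRL tumors and at 3740, 3387, 1485, 3127 and 3002 in D30 tumors. T4 stood alone at the low end, and the other D30 tumors spanned 3002 to 3740. D30 minus CTRL, the log2 difference was -0.09 ± 0.25 (SE), with a 95% interval from -0.64 to 0.46 (limma adjusted p = 0.892, exact permutation p = 0.778). Without T4 the sign turned, to 0.14, and without any other 1 tumor the value ranged from -0.21 (without N1) to -0.016 (without N5). With library-size scaling it was -0.31, while edgeR gave -0.054, DESeq2 -0.047 and upper-quartile scaling -0.046. A processed transcript, 1010001N08Rik, overlaps Gata6 on the opposite strand.

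Glis3 spans chromosome 19 from 28258851 to 28680077 (GRCm38) and is the second factor with an unadjusted p under 0.05. It was at 1621, 4086, 3080, 4711 and 3488 normalized counts in CTRL tumors and at 2666, 2148, 505, 2568 and 1675 in D30 tumors. All D30 tumors lay below the CTRL median of 3488, but T4 alone lay below the lowest CTRL tumor, N1. The log2 fold change was -0.95 ± 0.43 (SE), with a 95% interval from -1.88 to -0.02 (limma p = 0.0451, adjusted p = 0.276, exact permutation p = 0.0873). Without T4 it was -0.52. Exons of Glis3 sum to 8842 bases, within the longest 25% of genes (6784 bases or more), whose median log2 fold change over genes with a mean of at least 100 was -0.14 against 0.18 in the shortest 25%. The part of transcript length in the Glis3 value was not tested.

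Markers of islet cells, in which GLIS3 is known to act, were lower in D30 tumors. Of 15 tested endocrine markers 15 were lower and 5 passed, Ins1, Gcg, Ppy, Iapp and Slc2a2 (33.3% against 2.76% of all tested genes). Their summed level was 146 to 1740 normalized counts in CTRL and at most 164 in D30 tumors. The high values belonged to N2 and N6. Acinar markers summed to 346 to 81950 in CTRL and 207 to 7805 in D30 tumors, with 15 of 16 lower. Of these 16, 0 were called by limma or edgeR and 1 by DESeq2. An unadjusted limma p under 0.05 was found for 7 of the 16, and for 4258 of all 24560 tested genes. The listed markers Ptf1a, Neurod1 and Nkx6-1 were below the minimum mean and were not tested, but no listed marker was at 0 in every tumor. Glis3, Hnf4a and Foxa2 were each highest in N5 and next highest in N2. The part of normal pancreas in their values was not tested.

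Sox9 (chromosome 11, 112782224 to 112787760), a ductal and progenitor factor that also drives cartilage genes, had few reads, 21 to 309 per tumor. It was at 51.5, 50.6, 54.8, 18.6 and 67.6 normalized counts in CTRL tumors and at 23.6, 36.7, 25.4, 353.7 and 37.3 in D30 tumors. T5 alone was far above all others, and the other D30 tumors lay between 23.6 and 37.3, below every CTRL tumor but N5. The log2 fold change was 0.14 ± 0.67 (SE), with a 95% interval from -1.31 to 1.59 (limma adjusted p = 0.941, exact permutation p = 0.944). Without T5 it was -0.56 and without N5 -0.16, while it was 0.38 without T4 and 0.40 without T1. With library-size scaling it was -0.075, by edgeR 0.94 (adjusted p = 0.548) and by DESeq2 0.97, without an adjusted p. Of 9 tested cartilage genes 1 passed, Acan (11.1% against 2.76% of all tested genes). This gene encodes the proteoglycan aggrecan and rose by 2.14 on the log2 scale (limma adjusted p = 0.00656). Acan was at 4132 normalized counts in T5 and at 4071 in T1, a tumor with 23.6 of Sox9. Of the remaining cartilage genes, Col9a1 was at 0 in every tumor.

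Trp63 (chromosome 16, 25683763 to 25892102) was close to absent. It had 44 reads over all 10 tumors, at 13.7, 2.89, 5.48, 5.31 and 0 normalized counts in CTRL tumors and at 4.11, 0, 0, 12.6 and 0 in D30 tumors. The highest value in each group was in N1 and T5. A difference between groups was not detectable at this depth (log2 fold change -1.01 ± 0.89 (SE), limma adjusted p = 0.607, exact permutation p = 0.333). It was -0.60 without N1, -1.57 without N6 and -1.65 without T5, and -0.40 with a pseudocount of 5. Where no read was found, the limit is 3 reads, and such limits cover counting error only. Krt5, a keratin of basal squamous cells chosen here after its values were seen, was at 0 to 4.21 normalized counts in CTRL and 0 to 13.7 in D30 tumors. The desmocollin gene Dsc3, among the p63 targets, was at 0 in every tumor.

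**Figure D2:**
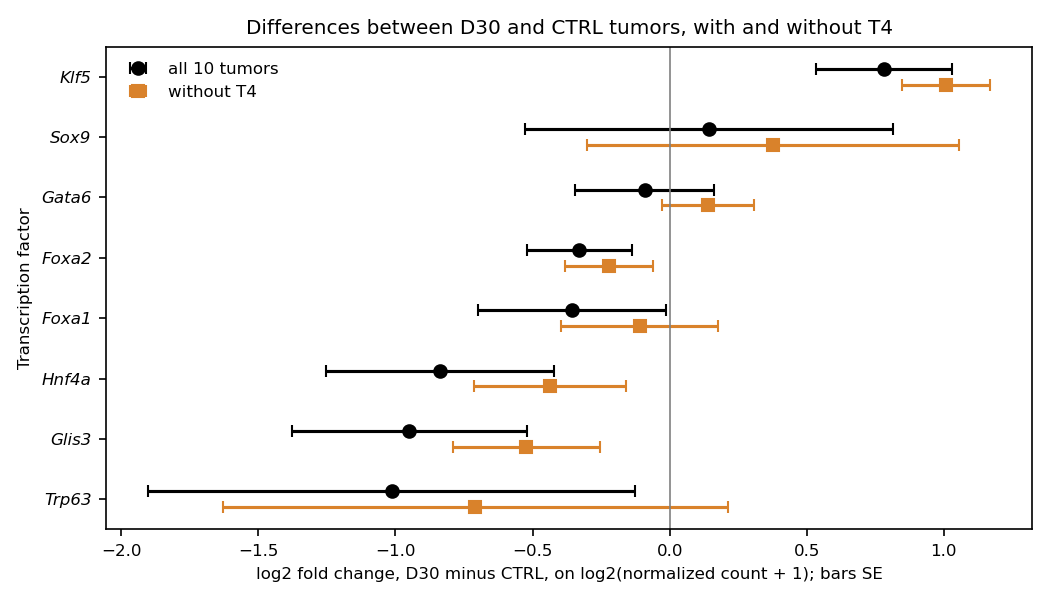
Log2 fold change (x axis, D30 minus CTRL on the log2(normalized count + 1) scale) of each factor (y axis) with its SE, from all 10 tumors (black circles) and without T4 (orange squares). Klf5 moves from 0.78 to 1.01, Hnf4a from -0.84 to -0.44 and Glis3 from -0.95 to -0.52, and Gata6 crosses 0.

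Levels were compared between factors per kilobase of exon. Over all tumors the order was Hnf4a at 2042 normalized counts per kb, Klf5 at 1099, Foxa2 at 1066, Gata6 at 460.5, Glis3 at 300.2, Foxa1 at 202, Sox9 at 17.4 and Trp63 at 0.525. Among 16540 protein-coding genes with a tested level, Hnf4a stood at percentile 95.3, Klf5 at 90.3, Foxa2 at 90.0, Gata6 at 75.9, Glis3 at 66.7 and Foxa1 at 58.1. Sox9 stood at percentile 26.2 and Trp63 at 2.77.

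Not all steps of this order exceeded the spread between tumors. Hnf4a was above Klf5 in 8 of 10 tumors, without overlap in CTRL and with overlap in D30 tumors. Klf5 was above Foxa2 in 5 of 10 tumors, and their ranges overlapped in both groups. In CTRL tumors Foxa2 had the higher mean, 1185 against 792 per kb, and in D30 tumors Klf5, 1406 against 948. Foxa2 was above Gata6 in 10 of 10 tumors with no overlap in either group. Gata6, Glis3 and Foxa1 overlapped as neighbours in both groups. Foxa1 was above Sox9, and Sox9 above Trp63, in 10 of 10 tumors.

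**Figure D3:**
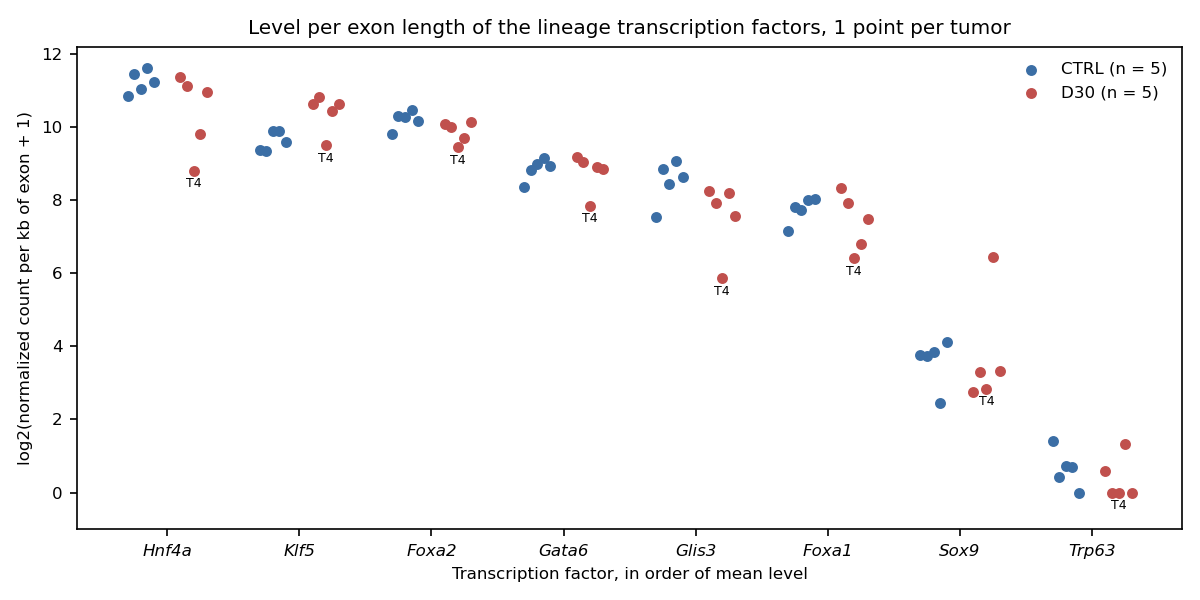
Level of each factor per kilobase of exon in each tumor, as log2(normalized count per kb + 1) on the y axis and factors in order of their mean level on the x axis, with CTRL tumors in blue and D30 tumors in red (n = 5 each). Hnf4a, Klf5 and Foxa2 form the top of the order, Sox9 and Trp63 the bottom, and T4 is labelled.

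Among close relatives of the factors, Hnf4g rose in D30 tumors. Of 20 tested relatives from the same families, 13 were higher and 7 lower, and the median log2 fold change was 0.27. Among them 1 passed, Hnf4g, the paralog of Hnf4a (5% against 2.76% of all tested genes). Hnf4g was at 19.99, 2.17, 10.1, 9.74 and 12.8 normalized counts in CTRL tumors and at 136, 442, 121, 73.3 and 115 in D30 tumors. The groups did not overlap, and T4 was within the range of the other D30 tumors. Its log2 fold change was 3.83 ± 0.57 (SE, limma adjusted p = 0.00431), and the call held in 10 of the 10 fits that left out 1 tumor. Per exon length, Hnf4g stood at 0.0294% to 0.411% of Hnf4a in CTRL tumors and at 1.97% to 10.4% in D30 tumors, a comparison chosen after the values were seen. Hnf4a thus stayed the more abundant of the pair in every tumor.

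Gata4, the relative of Gata6 in endoderm, was at 1825, 2473, 2629, 3314 and 2650 normalized counts in CTRL tumors and at 6317, 4057, 680, 3767 and 5849 in D30 tumors. All D30 tumors but T4 exceeded every CTRL tumor, and T4 was lowest. Its log2 fold change was 0.38 (limma adjusted p = 0.745), and without T4 it was 0.94 (limma adjusted p = 0.0157). Per exon length Gata4 stood at 133% to 150% of Gata6 in CTRL tumors, at 76.3% in T4 and at 199.7% to 325% in the other D30 tumors. Foxa3 stood at 4.25% to 9.39% of Foxa2 in CTRL and at 3.23% to 34.1% in D30 tumors, and Klf4 at 86.4% to 135% of Klf5 in CTRL and at 59.3% to 121% in D30 tumors. Both ranges overlapped between groups. Klf10 and Gata3, next to Hnf4g by p, had log2 fold changes of 0.67 and 1.81 that did not pass (limma adjusted p = 0.132 and 0.140), and Gata3 passed without T4 (2.20, limma adjusted p = 0.0292).

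**Figure D4:**
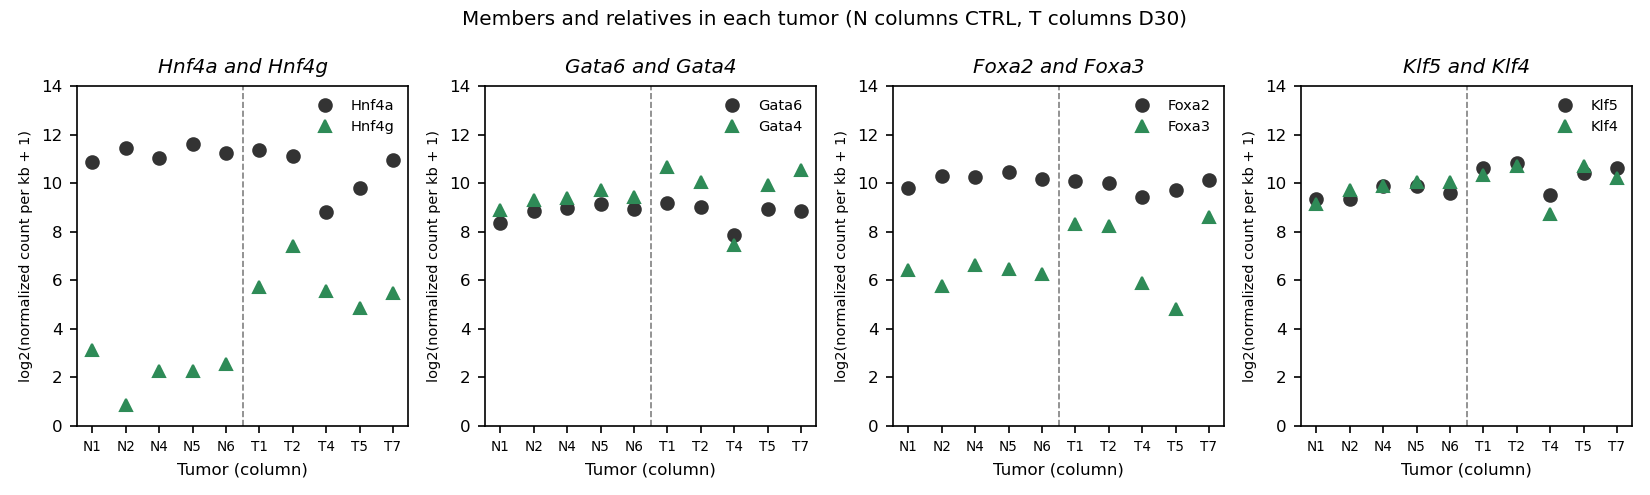
Levels of 4 factors (black circles) and of a relative (green triangles) per kilobase of exon, as log2(normalized count per kb + 1) on the y axis, in each tumor (x axis; N columns CTRL, T columns D30). Hnf4g lies above its CTRL range in all 5 D30 tumors and below Hnf4a throughout, while Gata4 lies above Gata6 in every tumor but T4.

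Partner factors of the lineage network rose in part. Of 21 tested partners 13 were higher and 8 lower, their median was 0.37, and 4 passed, all higher (19.0% against 2.76% of all tested genes). Besides Hnf4g these were Ovol1, Spdef and Esrra. Ovol1 is a zinc finger transcriptional repressor that promotes epithelial differentiation. Spdef is an ETS factor of secretory cells, and Esrra a nuclear receptor of mitochondrial metabolism. Ovol1 was at 2.10, 5.78, 8.22, 13.3 and 1.71 normalized counts in CTRL tumors and at 140, 253, 16.2, 43.5 and 123 under D30. It rose by 3.76 ± 0.73 (SE) on the log2 scale (limma adjusted p = 0.0150). Spdef was at 24.6 to 166 normalized counts in CTRL and 183 to 1244 in D30 tumors (log2 fold change 2.47 ± 0.58 (SE), limma adjusted p = 0.0387). Esrra was at 2100 to 2552 in CTRL and 2786 to 7069 in D30 tumors (log2 fold change 0.92 ± 0.23 (SE), limma adjusted p = 0.0491). In all of these the groups did not overlap. With library-size scaling Spdef and Esrra did not pass (limma adjusted p = 0.0654 and 0.0969), nor did Esrra with upper-quartile scaling (0.0518) or without a filter (0.0620). The calls of Spdef and Esrra held in 2 of the 10 fits that left out 1 tumor, those without T4 and without T5, whereas that of Ovol1 held in 10 of 10.

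The partner list depended on T4. Without it 7 partners passed (33.3% against 6.43% of all tested genes), all higher, and the median was 0.73. Elf3, an epithelial ETS factor, was at 2573 to 5619 normalized counts in CTRL tumors and at 13027, 14982, 3488, 16954 and 14355 in D30 tumors. T4 alone lay within the CTRL range. Its log2 fold change was 1.52 (limma adjusted p = 0.0559), and 1.94 without T4 (limma adjusted p = 0.000254). Klf4 (0.72, limma adjusted p = 0.0487) and Gata4 were the others that passed without T4 and not with it by limma.

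Factors of the mesenchymal and basal states were on balance lower, without a call. Of 23 tested, 6 were higher and 17 lower, with a median of -0.18. By limma or edgeR 0 passed, and 1 passed by DESeq2. An unadjusted limma p under 0.05 was found for 3 of the 23, and for 4258 of all 24560 tested genes. Sox4, a SOX factor of progenitor and invasive cells, was at 16405 to 23506 normalized counts in CTRL and 10274 to 14535 in D30 tumors. These groups did not overlap, and the log2 fold change was -0.57 ± 0.18 (SE, limma adjusted p = 0.122). Zeb1, a repressor of epithelial genes, had a log2 fold change of -0.87 (limma adjusted p = 0.147) and was at 409 in T4 against 957 or more in the other tumors. Etv1, an ETS factor, had one of -1.18 (limma adjusted p = 0.166), and -1.42 without T4, where it passed (limma adjusted p = 0.0492).

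Genes of the classical program were mostly higher in D30 tumors, with few calls. Of 20 tested 17 were higher, the median log2 fold change was 0.63, and 2 passed, both higher (10% against 2.76% of all tested genes). Agr2, a secretory pathway disulfide isomerase, was at 2035, 301, 934, 374 and 1121 normalized counts in CTRL tumors and at 6491, 9086, 2713, 1186 and 8108 in D30 tumors (log2 fold change 2.53 ± 0.61 (SE), limma adjusted p = 0.0448). Only T5 lay within the CTRL range, and Agr2 did not pass with library-size scaling (limma adjusted p = 0.0698) or without a filter (0.0552). Ceacam1, a cell adhesion molecule, was at 54.9 to 102 in CTRL and 136 to 1180 in D30 tumors (log2 fold change 2.45 ± 0.48 (SE), limma adjusted p = 0.0168). Lgals4, an intestinal galectin, came next with a log2 fold change of 1.40 (limma adjusted p = 0.0565). Without T4, 7 classical genes passed (35% against 6.43% of all tested genes), 6 higher and 1 lower, the mucin gene Muc5ac at -2.04.

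Genes of the basal-like program went both ways. Of 17 tested 10 were higher and 7 lower. By limma 2 passed, Fgfbp1 higher and Krt15 lower (11.8% against 2.76% of all tested genes). The median was 0.57 on the log2 scale. It was 0.064 when genes of any level were tested. Krt15, a basal keratin, was at 231 to 481 normalized counts in CTRL and 59.0 to 164 in D30 tumors (log2 fold change -1.63 ± 0.34 (SE), limma adjusted p = 0.0208). Fgfbp1, a carrier of fibroblast growth factors, was at 97.8, 1.45, 41.1, 7.08 and 23.1 in CTRL tumors and at 207, 336, 658, 108 and 310 in D30 tumors (log2 fold change 3.92 ± 0.84 (SE), limma adjusted p = 0.0253). By edgeR Fgfbp1 did not pass (adjusted p = 0.0540). The glucose transporter gene Slc2a1 had a log2 fold change of 1.56 (limma adjusted p = 0.0635), with no overlap between groups.

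Known HNF4A targets of gut and liver included genes that rose, beside a Hnf4a level that did not pass the test. Of 22 tested 14 were higher, and 5 passed, 4 higher and 1 lower (22.7% against 2.76% of all tested genes). The median log2 fold change was 0.17. The median turned to -0.054 with library-size scaling, and it was 0.38 by edgeR and 0.39 by DESeq2. Muc13, a transmembrane mucin, was at 34.7, 17.3, 19.2, 41.6 and 31.7 normalized counts in CTRL tumors and at 324, 778, 156, 295 and 574 in D30 tumors (log2 fold change 3.70 ± 0.43 (SE), limma adjusted p = 0.00133). Gpa33, an intestinal cell surface antigen, was at 452 to 1896 in CTRL and 5214 to 8229 in D30 tumors (log2 fold change 2.59 ± 0.32 (SE), limma adjusted p = 0.00162). Tm4sf5, a membrane protein of the transmembrane 4 family, and Mogat2, an enzyme of intestinal fat absorption, rose by 2.86 and 1.83 on the log2 scale (limma adjusted p = 0.00660 and 0.00545). These 4 calls held in 10 of the 10 fits that left out 1 tumor. Ttr, the thyroid hormone carrier transthyretin, was at 1034 to 3474 in CTRL and 458 to 1181 in D30 tumors (log2 fold change -1.53 ± 0.32 (SE), limma adjusted p = 0.0237). Of the 10 tested hepatocyte markers 2 passed, Alb and Ttr, both lower (20% against 2.76% of all tested genes).

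Known p63 targets had the largest median of the 7 lists of factors and targets, 1.18, although Trp63 itself was nearly unread. Of 18 tested 15 were higher, and 4 passed, 3 higher and 1 lower (22.2% against 2.76% of all tested genes). Lamb3, which encodes a laminin chain of the basement membrane, was at 1282, 2112, 3202, 1828 and 1766 normalized counts in CTRL tumors and at 6340, 6976, 6027, 16101 and 5056 in D30 tumors (log2 fold change 1.92 ± 0.32 (SE), limma adjusted p = 0.00660). T5 was the highest tumor for Lamb3, and its call held in 10 of the 10 fits that left out 1 tumor. Ripk4, a kinase of keratinocyte differentiation, was at 1612 to 1908 in CTRL and 2624 to 4232 in D30 tumors (log2 fold change 0.76 ± 0.18 (SE), limma adjusted p = 0.0350), and it did not pass with library-size scaling (limma adjusted p = 0.107). The called gene that was lower was Krt15. By DESeq2 12 of the 18 passed, where DESeq2 called 9.27% of all genes with an adjusted p.

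**Figure D5:**
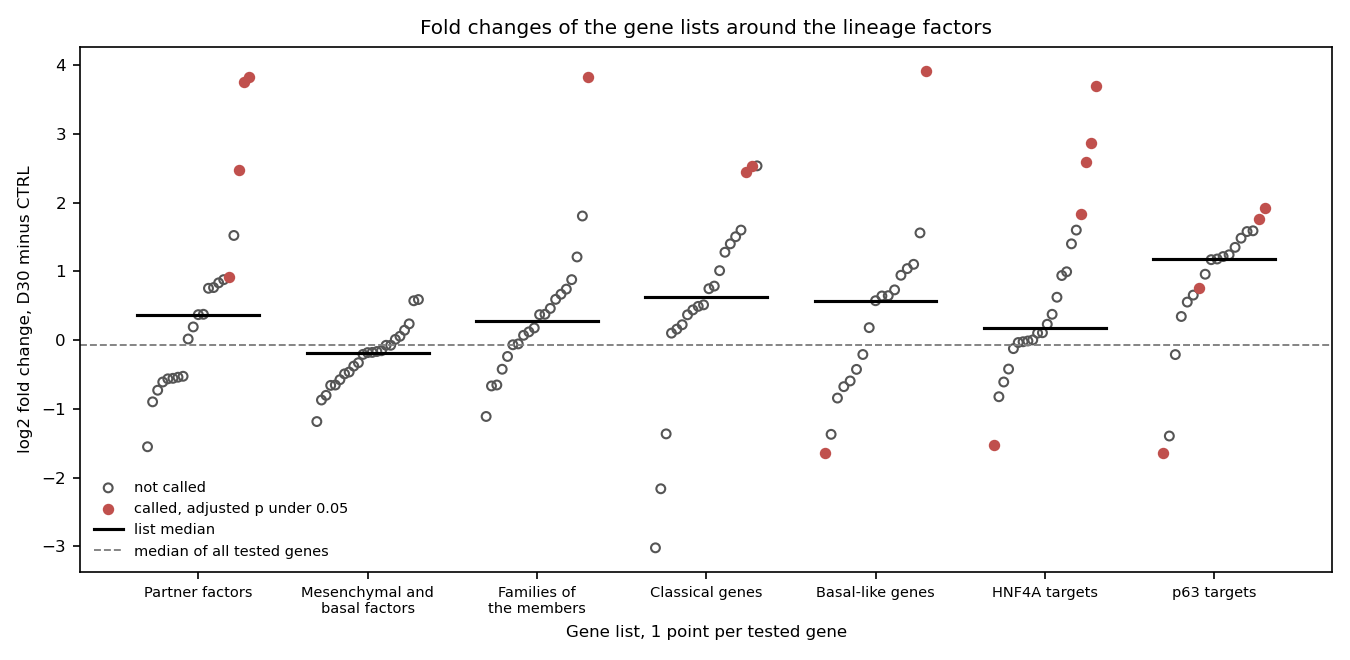
Log2 fold change (y axis, D30 minus CTRL) of each tested gene in 7 lists (x axis), with called genes filled red, the list median as a black line and the median of all tested genes, -0.06, as a dashed line. The p63 targets have the highest median, 1.18, and the mesenchymal and basal factors the lowest, -0.18.

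Epithelial identity of the samples was checked by ductal markers. Their summed level was 314781 to 464243 normalized counts in CTRL and 457545 to 584060 in D30 tumors, carried by keratins. Of 15 tested 10 were higher and 5 lower, and 2 passed, Spint2 higher (log2 fold change 1.60) and Cldn7 lower (-2.59). An unadjusted p under 0.05 was found for 12 of the 15, and 6 passed by DESeq2. Without T4, 8 passed by limma, 4 higher and 4 lower (53.3% against 6.43% of all tested genes). Epcam, named after its values were seen, was at 15.9 to 191 in CTRL and 0 to 62.5 in D30 tumors. This defining marker was far below the keratins, at 0 in T2, and its log2 fold change was -3.17 (limma adjusted p = 0.0990). Host markers moved beside the factor lists. The counts in this paragraph stand beside 2.76% of all tested genes called by limma and 9.27% of genes with an adjusted p called by DESeq2. An unadjusted limma p under 0.05 was found for 4258 of all 24560 tested genes. Macrophage markers were lower for 10 of 13, with Csf1r and Cd163 called, and summed to 23392 to 35037 normalized counts in CTRL and 15587 to 31838 in D30 tumors. Only T4 lay within the CTRL range, and the other D30 tumors were at 15587 to 18051. Endothelial markers were lower for 9 of 11, with Cdh5 called, and summed to 16235 to 24973 in CTRL and 9208 to 14922 in D30 tumors. Fibroblast markers were lower for 12 of 13 and summed to 83733 to 147436 in CTRL and 36929 to 112113 in D30 tumors. Of the fibroblast markers 0 passed by limma or edgeR, 7 had an unadjusted p under 0.05 and 2 passed by DESeq2. T cell markers were lower for 10 of 10, of which 0 passed by limma or edgeR, 3 had an unadjusted p under 0.05 and 1 passed by DESeq2. Mesothelial markers were lower for 6 of 10, with Muc16 called, and summed to 35741 to 43441 in CTRL and 28683 to 97769 in D30 tumors. Their sum was highest in T5 (97769) and next in T4 (57961), both above every CTRL tumor. Of 9 tested enterocyte markers 4 were higher, 0 passed by limma, 3 had an unadjusted p under 0.05, 1 passed by edgeR and 3 by DESeq2. The part of these cell types in the values of the factors and their targets was not tested.

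The genes whose pattern was most like each factor were sought among 17300 genes with a mean of at least 10, by Pearson correlation over the 10 tumors with group means removed. Values share the tumors' depth and composition and are given as a description. The closest were Patj, Dsp and Rap1gap2 for Gata6 (r = 0.994, 0.993 and 0.992) and Thada, Celf3 and Zfp691 for Hnf4a (0.993, 0.992 and 0.990). For Foxa1 they were Tecpr2, Slc16a8 and Zfp41 (0.984, 0.983 and 0.982), and for Foxa2 C2cd4c, Nuak2 and Ficd (0.985, 0.974 and 0.959). For Klf5 they were Reep6, Gid4 and Slc37a1 (0.983, 0.982 and 0.982), and for Glis3 Washc2, Cplane1 and Slc1a4 (0.996, 0.996 and 0.996). For Sox9, whose pattern was set by T5, they were H2-Q4, Klf2 and Rdh12 (0.990, 0.980 and 0.969). Trp63 was below the minimum level. Within the 8 factors, Hnf4a and Foxa1 were each other's nearest (0.928, and 0.909 in the 9 tumors without T4), as were Gata6 and Glis3 (0.959, and 0.866 without T4). Foxa2 was nearest to Hnf4a (0.865), but to Gata6 (0.772) without T4. Klf5 was nearest to Gata6 (0.920), a value that fell to 0.701 without T4. Without T4 the gene nearest to Hnf4a was Ephb4 (0.990) and that nearest to Gata6 Zfp623 (0.986), while Tecpr2 stayed nearest to Foxa1 (0.993).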

How the data were processed

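RNA was measured in 5 CTRL and 5 D30 tumors. The authors made strand-specific libraries from total tumor RNA, trimmed the read pairs with Trim Galore and aligned them with STAR 2.7.0e. The submitters' processing notes name GRCm39 and DESeq2, while the methods name hg38. The counting settings are not given in the sources used here. The authors deposited 1 signal per gene and tumor, a normalized count already divided by a size factor. In every column 100% of values were whole reads (tolerance 0.1) once this division was undone. N columns were taken as CTRL by their letter and T columns as D30 as the remaining group. Columns and labels number the tumors differently, and no column was tied to an animal.

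Genes with a mean of at least 1 were tested on log2(normalized count + 1) in limma 3.58.1 (R 4.3.3) with an intensity trend, two-sided, and p was adjusted by Benjamini-Hochberg over 24560 genes. This scale understates changes of low genes. As alternatives, the same genes were tested on recovered reads with DESeq2 1.42.0 and with edgeR 4.0.16. Exact permutation tests took every assignment of labels, with 0.00794 as the smallest p. On simulated counts limma recovered 24% of 2-fold and 86% of 4-fold changes, with 1.79% of calls false. The changed genes all had levels well above that of Trp63, and no tumor that stands apart as T4 does was simulated. These rates therefore do not give the power for the 8 factors. Names and positions came from GENCODE M21 (GRCm38), which named 94.1% of identifiers. Named genes were the 8 factors, the 3 with the smallest p and each called gene of the lists, the 3 most like each factor, and markers at 0 throughout. The values of some genes that meet this rule are left out here. Other names were chosen after their values were seen. The factors and lists were chosen with earlier results of these data known.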

Additional observations from a re-analysis of the deposited data

Results flagged for a closer look

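In 16 groups of 5 tumors, 8 factors in CTRL and in D30, 5 held 1 tumor that stood apart from the others by the Dixon criterion. Chance meets this criterion in about 1 of 20 groups. The groups share the same tumors and some factors vary together, so they are not independent and the 5 cannot be weighed against that rate. In D30 tumors T4 stood low for Gata6 (1485 normalized counts, next lowest 3002), for Klf5 (3735, next lowest 7186) and for Glis3 (505, next lowest 1675). T5 stood high for Sox9 (354, next highest 37.3). In CTRL tumors N5 stood low for Sox9 (18.6, next lowest 50.6).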

How the results depend on the processing

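No paired analysis was possible because the column numbers are not the replicate numbers of the labels and columns were tied to groups only. The alternatives were edgeR, DESeq2, library-size and upper-quartile scaling, pseudocounts of 0.5 and 5, no filter, a mean of at least 10, leaving out each tumor, and, added after seeing the data, leaving out T4 and T5 together. Hnf4a, Foxa2, Glis3 and Trp63 kept their direction and stayed without a call under each of them, except that Trp63 was not among the genes with a mean of at least 10. Library-size scaling moved the median over all tested genes from -0.06 to -0.27. Few reads of Sox9 and Trp63 limit their values. The causes of the changes below were not tested.

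The number of genes called was 1982 by DESeq2 and 2418 without T4 and T5, and 279 (without N2) to 1573 (without T4) when 1 tumor was left out. It also fell by over 1.5 times without N5, N6 or T7. Without T4 and T5 Gata6 was at 0.17, Foxa1 at 0.17, Sox9 at -0.48 and Klf5 at 1.07 (limma adjusted p = 0.00150), and Sox9 was at -0.075 with library-size scaling. Klf5 was at 0.83 by DESeq2 (adjusted p = 0.0251). With 1 tumor left out, Gata6 ranged from -0.21 to 0.14 (above 0 without T4), Sox9 from -0.56 (without T5) to 0.40, with -0.16 without N5, and Klf5 from 0.68 to 1.01. Hnf4a ranged from -1.08 to -0.44, Foxa1 from -0.59 to -0.11, Foxa2 from -0.43 to -0.22, Glis3 from -1.19 to -0.52 and Trp63 from -1.65 to -0.60. Sox9 was at 0.94 by edgeR and 0.97 by DESeq2.

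For partner factors 8 passed by DESeq2, 2 with library-size scaling and 9 without T4 and T5, where the median was 0.79, and 2 to 7 passed with 1 tumor left out, with medians of 0.14 (without T1) to 0.73 (without T4). For mesenchymal and basal factors 1 passed by DESeq2, 1 with library-size scaling, where the median was -0.40, 5 without T4 and T5, and 0 to 1 (without T4) with 1 tumor left out. For the families 3 passed by DESeq2 and 4 without T4 and T5, and 1 to 4 with 1 tumor left out; their median was 0.49 by edgeR, 0.50 by DESeq2, 0.051 with library-size scaling, and 0.042 (without T5) to 0.54 (without T4) otherwise.

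For classical genes 4 passed by edgeR, 9 by DESeq2, 1 without a filter and 10 without T4 and T5, where the median was 1.18, and 0 (without N5) to 7 (without T4) with 1 tumor left out. For basal-like genes 1 passed by edgeR, and 0 (without N5 or N6) to 4 (without T4) with 1 tumor left out; their median was 0.064 without a filter, 0.15 without T4 and T5, and 0.25 (without T5) to 0.65 with 1 tumor left out. For HNF4A targets 9 passed without T4 and T5, where the median was 0.45, the median was -0.054 with library-size scaling, and 4 to 8 (without T4) with 1 tumor left out. For p63 targets 12 passed by DESeq2, 8 without T4 and T5, and 2 (without N4, N5 or N6) to 7 (without T4) with 1 tumor left out; their median was 1.47 by edgeR, 1.48 by DESeq2, 0.95 with library-size scaling, and 0.92 (without T5) to 1.21 with 1 tumor left out.

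Single calls were lost for Spdef and Esrra without any 1 tumor but T4 or T5, for Agr2 without N2, N4, N5, N6, T1, T2 or T7, for Ripk4 without N1, N2, N4, N5, N6, T2 or T7, for Ttr without N1, N2, N5, N6 or T1, for Fgfbp1 without N5, N6, T2 or T7, for Krt15 without N4, N5 or N6 and for Ceacam1 without N5. Calls were also lost for Spdef, Esrra, Agr2 and Ripk4 with library-size scaling, for Esrra with upper-quartile scaling, for Esrra and Agr2 without a filter and for Fgfbp1 by edgeR.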
